A study of Mus musculus with 6 samples.

Results

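Genes of store-operated calcium entry and of the NFAT transcription factors were followed in 5C.C7 T cells with and without CTLA-4. The members were chosen by symbol: Ryr1, Orai1, Stim1, Stim2, Itpr1, Itpr2, Nfatc1, Nfatc2, Nfatc3 and Rcan1, with every probe set that the array annotation assigns to exactly that gene. This gave 29 of 45037 non-control probe sets, for 9 of the 10 genes and of 18193 named genes in all. Itpr1 was not analysed here. Expression was measured on Affymetrix arrays, with 3 arrays per genotype. All donor cells came from 5C.C7 mice, whose T cells carry a transgenic receptor for a moth cytochrome c (MCC) peptide, and all donors were RAG2-/- and CD45.1. The CTLA-4 KO donors were CTLA-4-/- in addition, so that CTLA-4, an inhibitory receptor of activated T cells, was the only labelled difference. Recipients of either kind of cell were B10.A mice, immunized with the MCC peptide and LPS, and the cells were sorted on day 4. The deletion is in the donor cells themselves, and B10.A recipients have lymphocytes of their own. Donor age and the number of animals behind each array are not given in the sources used here.

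When a T cell receptor is engaged, phospholipase C makes inositol trisphosphate, which opens receptor channels in the endoplasmic reticulum and lets stored calcium out. STIM proteins sense the emptied store and open ORAI channels in the plasma membrane, and the calcium that enters activates the phosphatase calcineurin. Calcineurin dephosphorylates NFAT proteins, which enter the nucleus and act with partners such as AP-1 on cytokine and inhibitory receptor genes, CTLA-4 among them, while RCAN1 binds calcineurin and restrains it.

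In these arrays no probe set of the entry channel, its sensors, the NFAT factors or Rcan1 passed the test between genotypes. Of the 29 probe sets 25 were bright enough to test, and 1 changed, a dim probe set of the calcium release channel gene Ryr1. It was higher in CTLA-4 KO cells and was tested only through its level there. In the fit by genotype only, it lost its call when all dim probe sets were tested. Over all probe sets 1.25% of 27022 were called, 0.785% higher and 0.470% lower (limma, Benjamini-Hochberg adjusted p under 0.05). With the replicate number as a block, which compares arrays of the same number, again only this 1 of the 25 was called, where 8.66% of all probe sets were. With each array centred on its median, 73.5% of the calls were higher, against 62.5% as deposited. The balance turned with the replicate block, where 44.6% of the calls were higher, and with the Actb ratio, described below, as a term, where 42.9% of 21 were. The median log2 difference, CTLA-4 KO minus wild type, was 0.083 over the 25 probe sets and −0.041 over all tested probe sets, and the median size of the difference was 0.15 and 0.19. An unadjusted p under 0.05 was reached by 2 of the 25, where 15.6% of all probe sets reached it. Wild type and CTLA-4 KO values were fully apart for 4 of the 25, where 21.0% of all probe sets had no overlap. The replicate pairs had the same sign in 3 of 3 pairs for 8 of the 25, where 44.5% of all probe sets did. By the last 3 of these counts the members did not stand above the array as a whole. The members were chosen with earlier results of these data known, so all these counts, the 1 call included, are descriptions. With 3 arrays a group the precision is limited. The titles call the 3 arrays of each genotype biological replicates. The p-values measure the spread between these arrays, and how much of it is technical was not tested. In bulk samples fewer cells of a type and less RNA per cell cannot be told apart.

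The label was checked with Ctla4, whose only probe set had 5332, 4787 and 4587 in the wild type arrays and 812, 791 and 784 in the CTLA-4 KO arrays. The place of this probe set relative to the deletion is not known here, and the fall to 16.2% goes with the labels in every array. T cell markers were bright. Over the 7 genes the brightest probe sets summed to between 50550 and 56220 in wild type, against between 48360 and 49380 in CTLA-4 KO arrays, without overlap. Of the 7 genes, 2 had positive and 5 negative differences, and none was called. With the replicate block 2 were called, both lower, where 8.92% of 11990 genes were called over the array. They were Cd3g (log2 difference −0.35, limma adjusted p = 0.122, and 0.0290 with the block) and Cd28 (−0.34, 0.0731 and 0.0299). The ratio of 5' to 3' Actb signal, a sign of RNA integrity, averaged 0.471 ± 0.098 (SD, n = 3 arrays) for wild type, against 0.601 ± 0.079 for CTLA-4 KO.

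**Figure D1:**
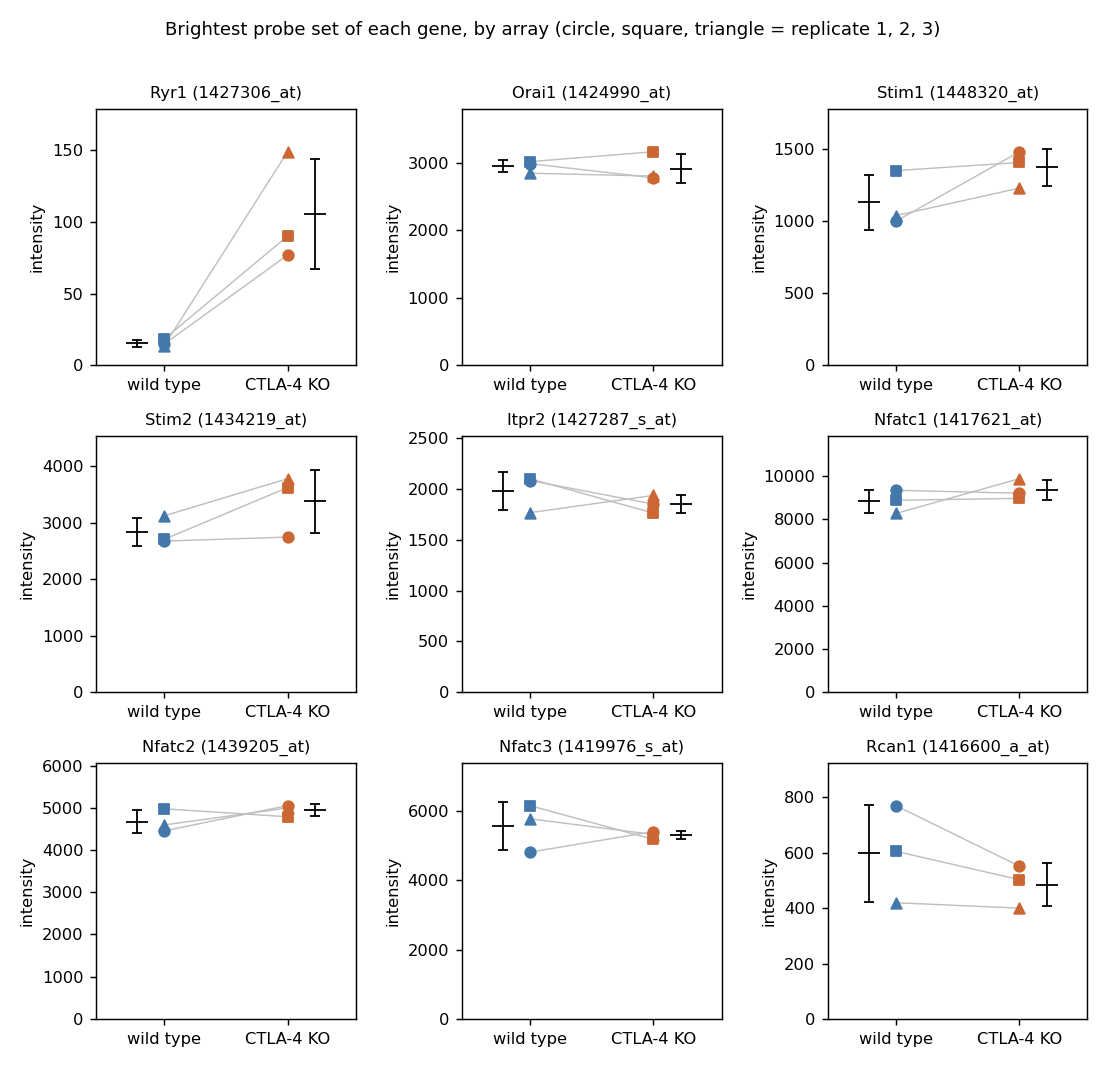
Intensity (linear axis from 0) of the brightest probe set of each of the 9 genes, with points for single arrays, lines joining arrays of the same replicate number, and black bars for the mean ± SD of 3 arrays. Ryr1 separates the genotypes, from 13.2 to 18 in wild type and from 76.8 to 149 in CTLA-4 KO, while the other 8 genes overlap.

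Ryr1 encodes a ryanodine receptor, a very large calcium release channel best known from the sarcoplasmic reticulum of skeletal muscle and also found in some immune cells. Its probe set 1427306_at had intensities of 14.5, 18 and 13.2 in wild type replicates 1, 2 and 3 and of 76.8, 90.1 and 149 in CTLA-4 KO replicates 1, 2 and 3. All CTLA-4 KO arrays lay above all wild type arrays, and the highest was CTLA-4 KO replicate 3. Its log2 difference was 1.92 (limma adjusted p = 0.0150), and it was 1.61, 1.64 and 2.50 in replicate pairs 1, 2 and 3. With a pseudocount of 1 in place of 16 the log2 difference was 2.66, and with 64 it was 1.07. The exact permutation test of the group means, counted in both directions, gave p = 0.1 (0.4 after adjustment over 10 genes, n = 3 arrays a group), the smallest that its 20 arrangements allow.

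The wild type values of this probe set lay under the floor of testing, an intensity of 35.4, so that it was tested only through its level in CTLA-4 KO arrays, and the size of the rise is not reliable. The call was lost in 4 fits whose log2 difference stayed between 1.87 and 2.11: with all dim probe sets tested (limma adjusted p = 0.0554), without the intensity trend (0.0557), without wild type replicate 3 (0.0562) and with the Actb ratio as a term (0.162). It was also lost without CTLA-4 KO replicate 2 (limma adjusted p = 0.0778, log2 difference 1.99). With all dim probe sets tested and the replicate number as a block, the limma adjusted p was 0.0373.

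The other Ryr1 probe set, 1457347_at, went the opposite way. It had 38, 27.2 and 19.4 in wild type replicates 1, 2 and 3 and 2.28, 4.25 and 3.23 in CTLA-4 KO replicates 1, 2 and 3. The genotypes did not overlap here either, with CTLA-4 KO lower. Its mean level fell under the floor, so it was not tested. In the fit with all dim probe sets its log2 difference was −1.18 ± 0.22 (SE, limma adjusted p = 0.0874), beside 1.92 for 1427306_at in the same fit. Within each array, the log2 value of 1427306_at minus that of 1457347_at was −0.82, −0.35 and −0.28 in wild type, against 2.34, 2.39 and 3.10 in CTLA-4 KO. The direction of Ryr1 as a gene is therefore not settled by the array, since its probe sets disagreed.

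**Figure D2:**
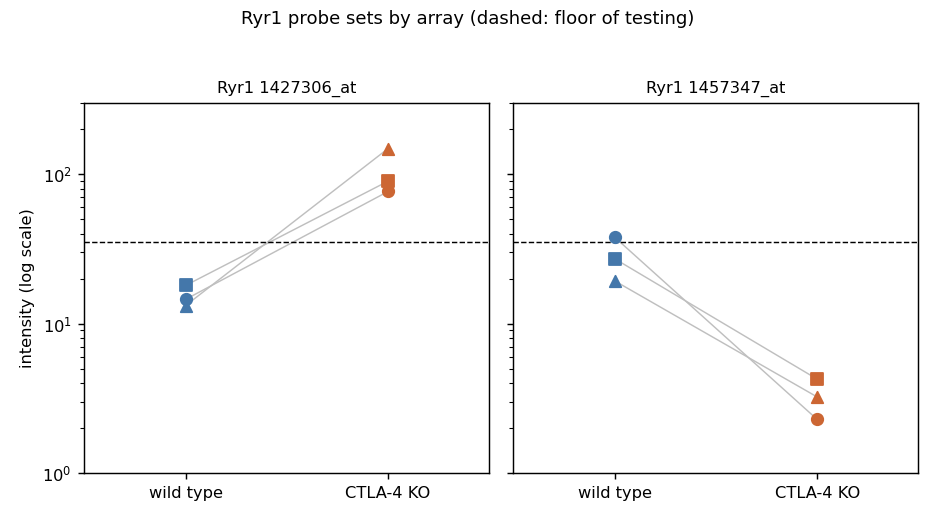
Intensity (log axis) of both Ryr1 probe sets in each array, with lines joining arrays of the same replicate number and a dashed line at the floor of testing, 35.4. Probe set 1427306_at crosses the floor upwards, while 1457347_at runs from 19.4 to 38 in wild type down to between 2.28 and 4.25 in CTLA-4 KO.

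Markers of other cell types were dim, as was Ryr1 1427306_at itself, at 76.8 to 149 in CTLA-4 KO arrays. Whether other cells carried the Ryr1 signal was not tested. The 7 skeletal muscle genes summed to between 239 and 285 in wild type, against between 220 and 251 in CTLA-4 KO. The fibre genes Myh1, Myh4, Tnnt3 and Mb lay under the floor. Of these, Tnnt3 ran from 4.78 to 5.98 in wild type and from 11.25 to 19.22 in CTLA-4 KO. The 3 tested muscle genes had negative differences. B cell genes summed to between 233 and 440 in wild type, against between 167 and 306 in CTLA-4 KO, with Cd79a, Pax5 and Cr2 under the floor. Of these, Pax5 ran from 44.5 to 48.7 in wild type and from 2.30 to 34.8 in CTLA-4 KO. Dendritic cell genes summed to between 242 and 356 and between 194 and 243, with Flt3 and Xcr1 under the floor. Xcr1 ran from 19.6 to 29.9 in wild type and from 5.44 to 9.43 in CTLA-4 KO. Itgax (66.04 to 74.33 against 45.81 to 60.65, limma adjusted p = 0.550) and Zbtb46 (70.75 to 105.6 against 50.4 to 62.6, 0.31) were also lower without overlap. Myeloid genes summed to between 459 and 489 in wild type, against between 426 and 581 in CTLA-4 KO, with Itgam and Cd14 under the floor. Of the 6 tested myeloid genes, 3 had positive and 3 negative differences. Cd68 had 93.3, 98.7 and 57.3 in wild type, against 132.9, 125.2 and 137.5 in CTLA-4 KO, with no overlap (limma adjusted p = 0.244). The 3 natural killer cell genes lay under the floor, as did 4 of the 5 erythroid and platelet genes, and the CD8 genes summed to between 262 and 422 in wild type, against between 315 and 513 in CTLA-4 KO. None of these marker genes that were bright enough to test was called, where 1.69% of 11990 genes were called over the array.

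Of the other ryanodine receptors, Ryr2 lay under the floor, and Ryr3 had a log2 difference of 0.12 ± 0.17 (SE, limma adjusted p = 0.775). The genes most like probe set 1427306_at across the 6 arrays, among 11989 other genes, were Cd27, a costimulatory receptor (Pearson r = 0.996), Gpatch4 (0.992) and Hspd1, a mitochondrial chaperone (0.990). These values are descriptions, as 6 arrays in 2 genotypes leave many genes with a high r, and they do not carry over to Ryr1 as a gene, whose other probe set ran the opposite way. Hspd1 had 3570, 3675 and 3605 in wild type, against 4774, 4894 and 5101 in CTLA-4 KO arrays.

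The upstream sequence of Ryr1 is shown because it is the called member. It is set against those of Rcan1, a well-known NFAT target with starts at separate exons, and of Nfatc2, whose upstream start ties with Rcan1 for the most copies of the NFAT core among the members. Each is the 250 bases before a RefSeq start (GRCm38.p6), 5' to 3' on the strand of the gene, with GGAAA or its reverse complement TTTCC in capitals.
Ryr1, chr7:29125152-29125401, minus strand: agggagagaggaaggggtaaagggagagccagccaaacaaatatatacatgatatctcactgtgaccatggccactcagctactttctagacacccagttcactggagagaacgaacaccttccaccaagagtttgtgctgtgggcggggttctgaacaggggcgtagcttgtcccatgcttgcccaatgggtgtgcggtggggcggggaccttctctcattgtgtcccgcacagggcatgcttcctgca
Rcan1, downstream start, chr16:92400079-92400328, minus strand: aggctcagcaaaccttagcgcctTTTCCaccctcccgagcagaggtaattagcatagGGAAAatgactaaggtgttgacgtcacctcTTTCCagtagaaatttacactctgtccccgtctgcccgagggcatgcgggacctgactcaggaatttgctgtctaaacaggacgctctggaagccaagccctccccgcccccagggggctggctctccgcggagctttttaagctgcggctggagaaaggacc
Rcan1, upstream start, chr16:92466170-92466419, minus strand: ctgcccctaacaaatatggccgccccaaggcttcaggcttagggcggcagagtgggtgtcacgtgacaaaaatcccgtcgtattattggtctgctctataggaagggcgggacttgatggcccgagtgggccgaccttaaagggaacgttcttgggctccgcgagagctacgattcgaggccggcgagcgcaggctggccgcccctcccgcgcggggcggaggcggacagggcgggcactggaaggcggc
Nfatc2, upstream start, chr2:168601658-168601907, minus strand: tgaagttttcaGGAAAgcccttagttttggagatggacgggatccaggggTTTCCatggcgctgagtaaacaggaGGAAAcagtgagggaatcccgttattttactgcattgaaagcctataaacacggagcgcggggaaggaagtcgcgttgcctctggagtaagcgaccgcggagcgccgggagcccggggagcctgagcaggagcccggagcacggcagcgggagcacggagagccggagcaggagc
The Ryr1 window and that of the upstream Rcan1 start held no GGAAA on either strand. The downstream Rcan1 start held 3, of which 1 was on the gene's strand, and also 1 copy of TGANTCA, the AP-1 core, which cannot overlap with GGAAA. The upstream Nfatc2 start held 3 and no TGANTCA. The table had windows for 8 members, at 11 starts, and 4 of the 11 held GGAAA. Those of Orai1, Stim1, Stim2 and Itpr2 held none. Among 32851 windows of the same length 55.6% held GGAAA and 6.75% held TGANTCA. A match is a run of letters and shows no binding.

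Orai1, the pore subunit of the plasma membrane calcium channel, was bright in both genotypes. Probe set 1424990_at had 2986, 3016 and 2844 in wild type, against 2776, 3162 and 2802 in CTLA-4 KO replicates 1, 2 and 3. The ranges overlapped, and the difference on the log2 scale was −0.02 ± 0.10 (SE, limma adjusted p = 0.948), with a 95% confidence interval from −0.24 to 0.20. Its dimmer probe set 1424989_at had a difference of 0.083 and varied more between wild type arrays, from 720 to 1211.

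The calcium sensors of the store had positive differences on their brightest probe sets, and these did not pass the test. Stim1, the main sensor, had 999, 1350 and 1038 in wild type, against 1481, 1407 and 1229 in CTLA-4 KO arrays on probe set 1448320_at. Wild type replicate 2 lay within the CTLA-4 KO range, and the log2 difference was 0.29 ± 0.14 (SE, 95% confidence interval −0.03 to 0.60, limma adjusted p = 0.367). The probe set 1436945_x_at of Stim1 had 0.083 ± 0.13 (SE). Stim2, a sensor that responds to smaller losses of stored calcium, had 2671, 2701 and 3117 in wild type, against 2742, 3618 and 3776 in CTLA-4 KO on 1434219_at. Replicates 2 and 3 of CTLA-4 KO lay above every wild type array, and replicate 1 lay inside their range. This gave a log2 difference of 0.24 ± 0.13 (SE, 95% confidence interval −0.05 to 0.54, limma adjusted p = 0.418). With a term for the Actb ratio the value was 0.105, against 0.39 without CTLA-4 KO replicate 1 and 0.16 without CTLA-4 KO replicate 3. On the dim 1441024_at of Stim2 it was −0.20 ± 0.28.

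Itpr2, an inositol trisphosphate receptor that releases stored calcium, was read by 6 probe sets, of which 5 were tested and none passed. Its brightest, 1427287_s_at, had 2085, 2103 and 1768 in wild type, against 1852, 1763 and 1938 in CTLA-4 KO arrays, with a log2 difference of −0.097 ± 0.11 (SE, limma adjusted p = 0.725), and 0.057 with the Actb ratio as a term. The other 4 had positive differences, from 0.039 to 0.38, and the mean over the tested probe sets was 0.15. Probe set 1424833_at was the only tested probe set of Itpr2 whose genotypes did not overlap, with 424, 407 and 410 in wild type, against 432, 514 and 528 in CTLA-4 KO (limma adjusted p = 0.470). The sign for Itpr2 thus depended on the probe set, and 1427693_at lay under the floor.

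**Figure D3:**
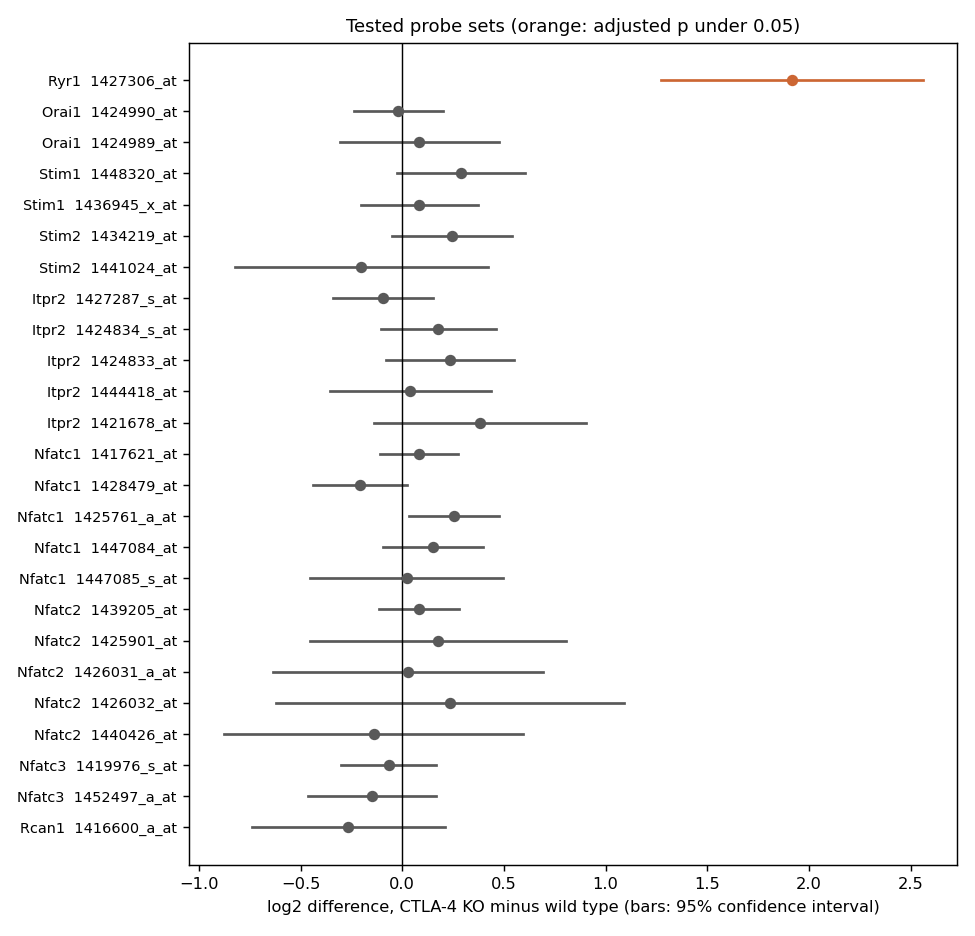
Log2 difference, CTLA-4 KO minus wild type, of the 25 tested probe sets (points), with 95% confidence intervals (bars) and calls in orange. Ryr1 1427306_at lies at 1.92, and the intervals of the 24 others are centred between −0.27 and 0.38.

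The NFAT factors were bright on their main probe sets in both genotypes. Nfatc1, an NFAT factor that is itself induced by NFAT in activated T cells, had 9353, 8891 and 8279 in wild type, against 9220, 8979 and 9892 in CTLA-4 KO arrays on its brightest probe set, 1417621_at. The ranges overlapped, and the log2 difference was 0.083 ± 0.087 (SE, 95% confidence interval −0.11 to 0.28, limma adjusted p = 0.695), and 0.18 with the Actb ratio as a term. Nfatc2, a factor already present in resting T cells, had 4453, 4978 and 4595 in wild type, against 5054, 4790 and 4996 in CTLA-4 KO on 1439205_at. Its log2 difference was 0.082 ± 0.090 (SE, 95% confidence interval −0.12 to 0.28, limma adjusted p = 0.711). Nfatc3, a related factor, had 4811, 6154 and 5773 in wild type, against 5406, 5177 and 5320 in CTLA-4 KO on 1419976_s_at. The CTLA-4 KO values fell inside the wild type range, and the log2 difference was −0.066 ± 0.11 (SE, 95% confidence interval −0.30 to 0.17, limma adjusted p = 0.808). The other Nfatc3 probe set, 1452497_a_at, had −0.15 ± 0.14.

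Probe sets of Nfatc1 differed from each other in direction. On 1425761_a_at the wild type arrays had 1805, 1800 and 1780 and the CTLA-4 KO arrays 2077, 2271 and 2090, with no overlap and a log2 difference of 0.25 ± 0.099 (SE, limma adjusted p = 0.251). On 1428479_at the wild type arrays had 4600, 5388 and 4730 and the CTLA-4 KO arrays 4338, 4537 and 3841, again with no overlap, and the difference was −0.21 ± 0.10 (SE, limma adjusted p = 0.369). Neither was called. The log2 value of 1428479_at minus that of 1425761_a_at within each array was 1.34, 1.57 and 1.40 in wild type, against 1.06, 0.99 and 0.87 in CTLA-4 KO. This quantity averaged 1.44 ± 0.12 for wild type and 0.97 ± 0.093 for CTLA-4 KO (SD, n = 3 arrays, exact permutation test counted in both directions, p = 0.1, the smallest possible). The pair was chosen after its values were seen. It is 1 of 5 pairs without overlap among the 34 pairs of tested probe sets of the same gene, where 12.9% of 17426 such pairs over the array had no overlap, so the count is near the background. The remaining Nfatc1 probe sets, 1447084_at and 1447085_s_at, had differences of 0.15 and 0.021.

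**Figure D4:**
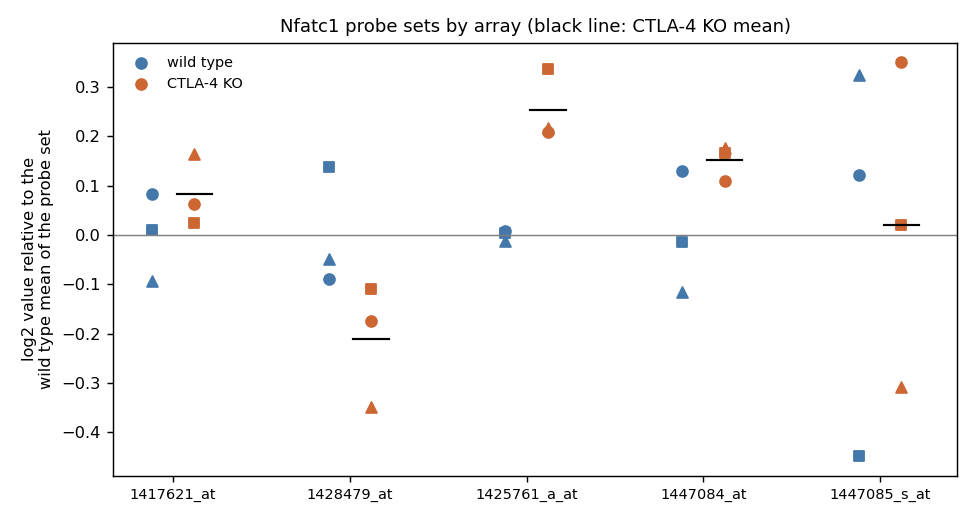
Log2 values of the 5 Nfatc1 probe sets in each array, relative to the wild type mean of the same probe set (circle, square and triangle for replicates 1, 2 and 3). The CTLA-4 KO arrays lie above wild type on 1425761_a_at (mean 0.25) and below it on 1428479_at (mean −0.21), and overlap with it on the others.

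The other 5 probe sets of Nfatc2 were dim. The 4 that were tested had means of at most 106 in both genotypes and log2 differences between −0.14 and 0.23, with SE from 0.28 to 0.39. Probe set 1425990_a_at lay under the floor and was not tested, at 17.2, 25.8 and 30.2 in wild type, against 3.42, 6.47 and 14.5 in CTLA-4 KO arrays. These values did not overlap, and in the fit with all dim probe sets the difference was −0.76 ± 0.25 (SE, limma adjusted p = 0.290).

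Rcan1, the calcineurin inhibitor, had 771, 605 and 420 in wild type replicates 1, 2 and 3 and 552, 503 and 400 in CTLA-4 KO replicates 1, 2 and 3 on 1416600_a_at. Same-numbered arrays took the same rank in both genotypes, and CTLA-4 KO was lower in 3 of 3 pairs. This gave a log2 difference of −0.27 ± 0.21 (SE, 95% confidence interval −0.74 to 0.21, limma adjusted p = 0.598), and −0.011 with the Actb ratio as a term. It was −0.49 without wild type replicate 3 and −0.067 without wild type replicate 1. With the replicate number as a block the limma adjusted p was 0.230. Its other probe set, 1416601_a_at, lay under the floor, at 27.6, 22.4 and 11.7 in wild type, against 18.5, 1.88 and 4.33 in CTLA-4 KO arrays.

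Over the brightest probe sets of the 8 genes other than Ryr1, log2 differences ran from −0.27 for Rcan1 to 0.29 for Stim1, with limma adjusted p from 0.367 to 0.948. All 8 confidence intervals lay within 1 log2 unit of 0, and 5 of them lay within 0.5. The intervals of Stim1, Stim2 and Rcan1 reached further, so differences of their point size could not be told from 0 with 3 arrays a group.

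The rest of the pathway was read from 8 lists with 73 genes, of which 64 had a probe set and 60 were tested on the brightest. In these, 1 gene rose and 1 fell, 3.33% of the 60, where 1.69% of 11990 genes were called over the array. The median log2 difference of the 60 was 0.013. The gene that fell was Ctla4, the deleted gene, whose fall was fixed by the design. The share of 3.33% includes this call, so it cannot be read as lying above the array. The gene that rose was Il21, a helper T cell cytokine, which had 2657, 2053 and 1959 in wild type, against 3760, 3909 and 3933 in CTLA-4 KO arrays (log2 difference 0.81 ± 0.12, SE, limma adjusted p = 0.0154). Its call was lost with the Actb ratio as a term (limma adjusted p = 0.142), without the intensity trend (0.132), without wild type replicate 2 (0.0552) or 3 (0.0566) and without CTLA-4 KO replicate 2 (0.0917), with a log2 difference between 0.72 and 0.91 in these fits. With the replicate number as a block, 6 rose and 5 fell, Ctla4 among them, 18.3%, where 8.92% of 11990 genes were called. The lists were chosen with earlier results of these data known, so these shares are descriptions.

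Of the 7 measured genes close to the receptor none was called. Lat, an adaptor that recruits phospholipase C, had 6700, 7445 and 7675 in wild type, against 9248, 8530 and 9395 in CTLA-4 KO arrays, with no overlap (limma adjusted p = 0.122, or 0.0437 with replicate number as a block). Fyn, a kinase of the receptor complex, had a log2 difference of 0.17 (limma adjusted p = 0.375). Of 7 tested sensor and channel relatives none was called either. Orai3 had a difference of −0.35 ± 0.19 (SE, limma adjusted p = 0.430), and Cracr2b, related to a regulator of ORAI channels, had 0.44 ± 0.36 (0.605).

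Of 5 other channels P2rx7, a calcium-permeable channel gated by ATP, had 2427, 3661 and 2792 in wild type, against 4109, 3960 and 4634 in CTLA-4 KO arrays. Its log2 difference was 0.53 ± 0.14 (SE, limma adjusted p = 0.108, or 0.0169 with the block). Trpm4, a calcium-activated cation channel, had −0.24 (limma adjusted p = 0.496). None of the 7 pumps and mitochondrial uptake genes was called, where Atp2a3, a pump that refills the store, had 0.16 (0.549) and Letm1 had 0.18 (0.552).

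The 5 measured genes of the calcineurin list all had positive differences and none was called. Ppp3ca, a catalytic subunit of calcineurin, had 0.27 (limma adjusted p = 0.462), and the catalytic subunit gene Ppp3cc had 0.16 (0.682). Of 11 tested inhibitors of calcineurin and NFAT 4 had positive and 7 negative differences, and none was called. Dyrk2, a kinase that phosphorylates NFAT, had 3890, 4127 and 3692 in wild type, against 2960, 3242 and 3019 in CTLA-4 KO arrays, with no overlap (log2 difference −0.34 ± 0.095, SE, limma adjusted p = 0.117, or 0.0269 with the block). Akap5, a scaffold that binds calcineurin, had −0.55 ± 0.18 (0.169, and 0.0475 with the block). Cabin1, a calcineurin-binding inhibitor, had 0.42 ± 0.14 (0.189, and 0.0409 with the block). Of the other NFAT genes, Nfat5 had −0.30 (limma adjusted p = 0.387) and Nfatc4, which was dim, had −0.27 (0.684).

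Among 15 genes that NFAT is known to act on, 9 had positive and 6 negative differences, and the median was 0.056. Besides Il21 and Ctla4, the replicate block called 4 of them, 2 higher and 2 lower, where it called 8.92% of genes over the array. Pdcd1, the inhibitory receptor PD-1, had a log2 difference of 0.39 ± 0.11 (SE, limma adjusted p = 0.122, and 0.0212 with the block), and Nr4a1, an immediate receptor-response factor, had 0.50 ± 0.15 (0.131 and 0.0104). Il2, the T cell growth cytokine, had 430, 291 and 319 in wild type, against 239, 231 and 188 in CTLA-4 KO arrays, a difference of −0.61 ± 0.19 (0.151 and 0.0320 with the block). Tnfrsf9, the costimulatory receptor 4-1BB, had −0.42 ± 0.14 (0.194 and 0.0224). The response factors Egr2 and Egr3 had −0.0098 and −0.058, and Ifng had 0.056. Il4 had 55, 118 and 103 in wild type, against 135, 212 and 134 in CTLA-4 KO arrays, with no overlap. Its log2 difference was 0.73 ± 0.28 (SE, limma adjusted p = 0.248, and 0.057 with the block). Tnf had 0.42 (limma adjusted p = 0.356) and Fasl 0.34 (0.385), while Lag3 had −0.40 (0.646). Outside the rule for named genes, Ryr2, Ryr3, Cabin1, Pdcd1, Nr4a1, Il2, Tnfrsf9, Egr2, Egr3, Ifng, Il4, Tnf, Fasl, Lag3, Cd68 and Tnnt3 were named after their values were seen. So were the markers Pax5, Xcr1, Itgax, Zbtb46, Cd3g and Cd28.

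**Figure D5:**
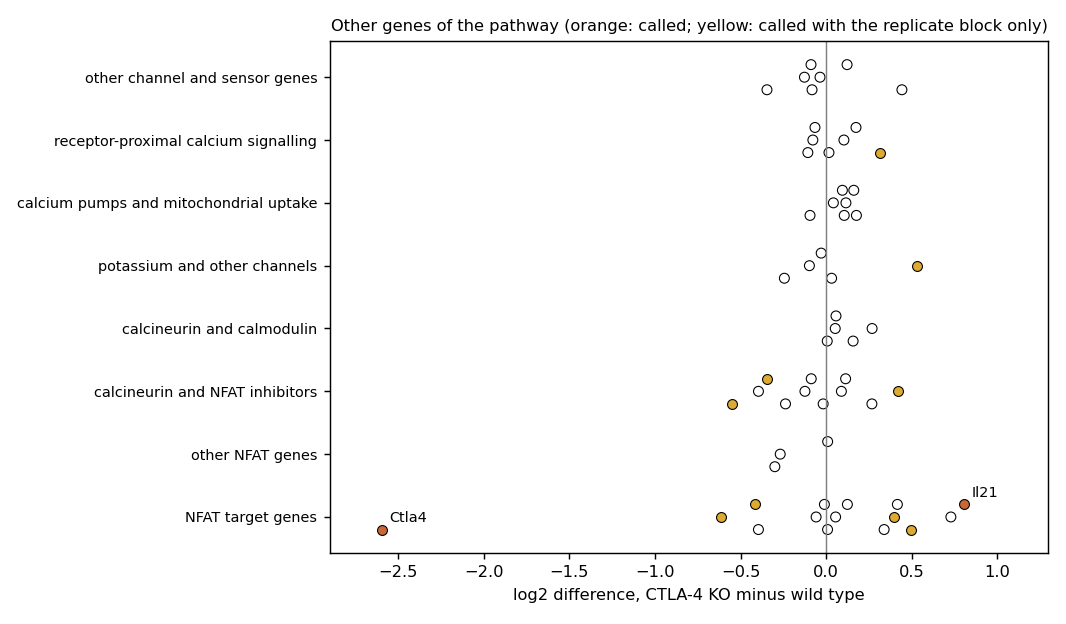
Log2 difference, CTLA-4 KO minus wild type, of the 60 tested genes of the 8 other pathway lists, each point being the brightest probe set of a gene. Il21 (0.81) and Ctla4 (−2.60) are called, and yellow points are called with the replicate block only.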

How the data were processed

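Intensity values, 1 per probe set and array, were deposited by the authors for 45101 probe sets and 6 arrays, made from 2 µg of total RNA per array, per the labels' protocols. Partek and MAS5 are named in the submitters' processing notes, and versions are not given in the sources used here. The trimmed mean (2% off each end) was 500 on every array, which is how MAS5 scales. Arrays correlated at r = 0.968 to 0.983 over tested probe sets.

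Values were turned into log2(intensity + 16), so differences of dim genes are understated. Control probe sets (64) were left out, and probe sets were tested where their mean log2 value reached the 40th percentile, an intensity of 35.4, which left 27022. limma 3.58.1 in R 4.3.3 was used (lmFit, eBayes with an intensity trend, genotype only, 4 residual degrees of freedom), and its two-sided p-values were adjusted over all tested probe sets (Benjamini-Hochberg). All samples were grouped by title. Replicate numbers are shared by the genotypes. For numbers 1, 2 and 3 the arrays' deviations from their group means had correlations of 0.371, 0.240 and 0.254. Arrays of different numbers were not compared in this way. The titles' numbers were taken as pairs for the pair differences, while the main fit did not use them. A fit with the number as a block was an alternative. The others were the dimness floor, pseudocount, normalization, trend, array weights, threshold, an Actb term, the kind of probe set and leaving out each array.

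Names came from the array's annotation, with 1 gene for 34958 probe sets, several for 932 and none for 9211, and symbols were updated through RefSeq GRCm38.p6 for 34754. The files name no build, and only the promoter table's own positions are printed. A gene was represented by its brightest probe set. The members and lists were chosen with earlier results of these data known. Named were all members, Ctla4, each called gene of a list, otherwise the 2 of smallest p in each list, and the 3 genes most like each called member. In data simulated for this comparison on 27022 probe sets, 51% of 100 changed 2-fold and 83% of 100 changed 4-fold were called. Of the calls in the simulated data 3.6% were false. These rates describe the simulated data only. Whether they hold for the real arrays, or for dim probe sets such as those of Ryr1, was not tested.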

Additional observations from a re-analysis of the deposited data

How the results depend on the processing

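The count of changed member probe sets, 1 as reported, was 0 with no filter on dim probe sets, 0 with the floor at the 60th percentile (where Ryr1 was too dim to be tested), 0 without the intensity trend, 0 with a term for the Actb ratio and 0 at an adjusted p threshold of 0.01. It ranged from 0 to 1 when single arrays were left out, with 0 when wild type replicate 3 was left out and 0 when CTLA-4 KO replicate 2 was. It was 1 with the replicate block, and also under both other pseudocounts, quantile normalization, median centring, array weights, a threshold of 0.1 and without the _s_at, _x_at and _a_at probe sets. The log2 difference of Ryr1 1427306_at was positive in each fit that tested it, from 1.07 with a pseudocount of 64 to 2.66 with 1. The count over all probe sets, 339 as reported, was 2341 with the replicate block, 111 with no filter, 20 without the trend, 521 with array weights, 21 with the Actb term, 45 and 832 at thresholds of 0.01 and 0.1, and 62 to 217 with single arrays left out. The cause of these shifts was not tested, and some of these fits also changed the number of tests or of arrays. None of the other 24 member probe sets was called in any of the 16 other fits that tested it (lowest limma adjusted p = 0.106, with 6 of them not tested at the 60th percentile), and the replicate block changed no call among them, but 11 of the 24 changed sign in at least 1 fit. Of 378 such values 16 moved by more than 1 SE. With the mean of all tested probe sets, Stim2 went from 0.24 to 0.021 and Itpr2 from −0.097 to 0.15. The alternatives for Il21 and Ctla4 were added after seeing the data, and Ctla4 was called in all 16. Signal over background limits Ryr1 and the dim Nfatc2 probe sets.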
